A study of Mus musculus with 8 samples.

Results

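The transcriptome described here is that of C2C12 cells transfected with the control siRNA siNC, taken from the 4 libraries siNC 1 to 4 of the 8 in the series. The other 4 libraries, of cells given siFAM129B, were not described and no comparison with them was made. C2C12 is an established mouse myoblast line, derived from thigh muscle, that divides in rich medium and withdraws from the cell cycle and fuses into multinucleate myotubes when serum is lowered. All 4 siNC libraries carry the treatment label of muscle differentiation, and, from the protocols in the labels, proliferating C2C12 were kept in 10% fetal bovine serum and switched to 2% horse serum to differentiate, with siRNA delivered by Lipofectamine RNAiMAX. Neither the sequence of siNC nor the time spent in horse serum is given in the sources used here, and whether the 4 libraries stem from separate cultures is not in the labels. RNA was purified on polyT before sequencing, and the deposited table gives 1 value per gene and library in FPKM, fragments scaled by transcript length and by the library's mapped total, so levels of different genes can be set side by side per unit of length.

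In a dividing myoblast the regulators Myod1 and Myf5 mark commitment to the muscle lineage, and during differentiation Myog and the Mef2 factors switch on the contractile genes of the sarcomere while genes of DNA replication and mitosis are shut down. The sarcomere is built of thin filaments (sarcomeric actin, tropomyosin, troponins) and thick filaments (sarcomeric myosin heavy and light chains) held at the Z disc and by titin. Many of these proteins have nonmuscle relatives in the same gene family, so the choice of family member shows which form of the cytoskeleton a cell uses. All counts and levels below are descriptions of these 4 libraries, with SD over the 4, and no comparison between groups was tested.

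Whole reads recovered from the values came to between 33330856 and 34938157 per siNC library. Of 21879 genes in the table, 10996 (50.3%) had a mean of at least 1 FPKM, the threshold used below for a detected gene, and these had a median of 1496 reads per library. Single libraries held between 10917 and 11056 genes at that level, and 10740 genes reached it in all 4. At 10 FPKM there were 6982 genes, at 100 FPKM 654 genes and at 1000 FPKM 18 genes. A further 5992 genes were listed at 0 in all 4 libraries. The median was 1.07 FPKM over the whole table and 15.1 FPKM over the detected genes.

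The levels were spread over many genes. The 10 most abundant genes held 6.20% ± 0.05 (SD, n = 4) of the summed FPKM, the 30 most abundant 11.5% ± 0.07 and the 1000 most abundant 54.4% ± 0.27. It took 783 genes to reach 50%. The top of the list was nearly the same in each library, since 29 genes were in the top 30 of all 4 and 32 genes were in the top 30 of at least 1.

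**Figure D1:**
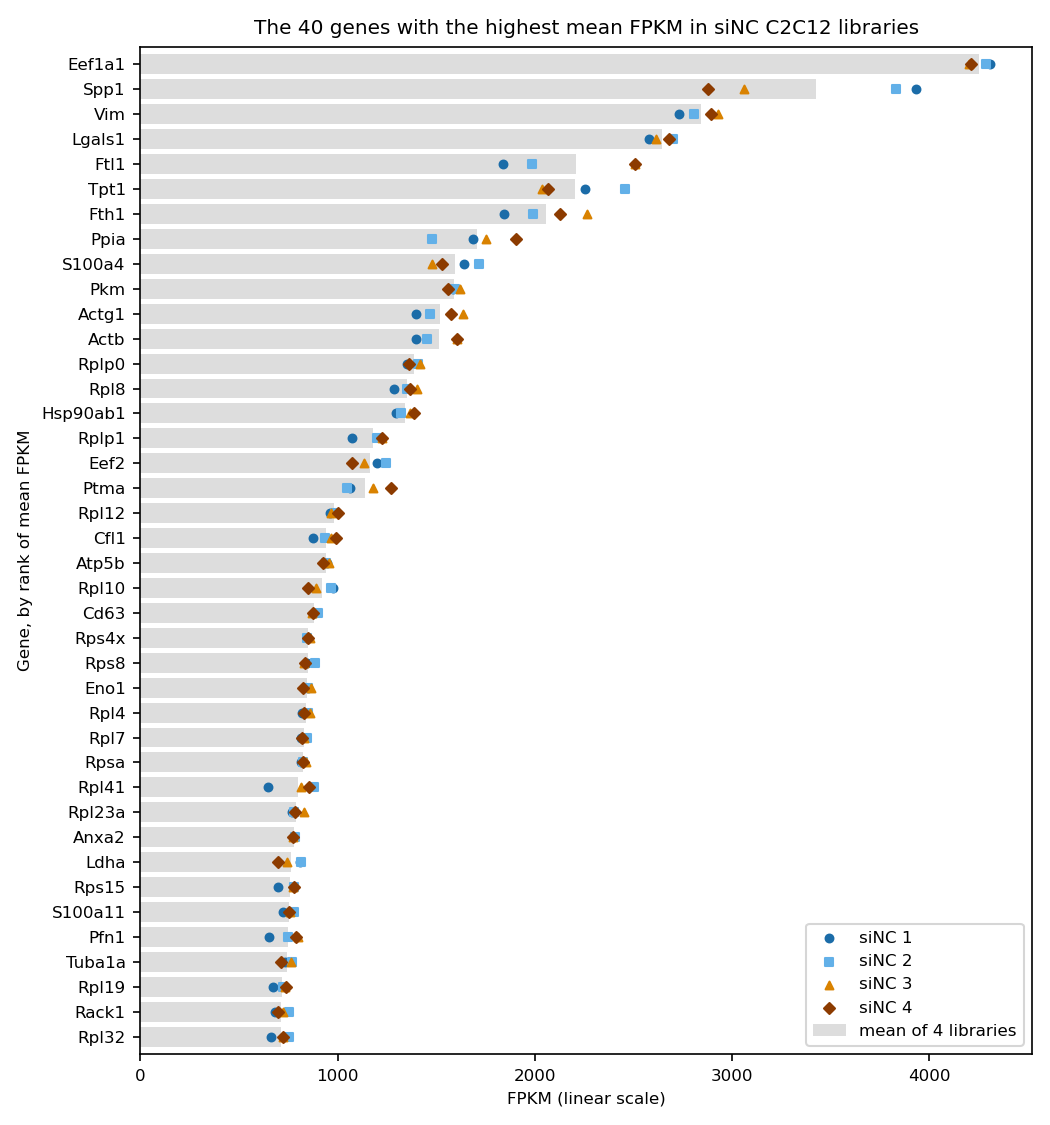
FPKM (horizontal axis, linear) of the 40 genes with the highest mean in siNC C2C12 cells (vertical axis, by rank); grey bars are means and the 4 symbols are the 4 libraries. Eef1a1 leads at a mean of 4251 FPKM with its 4 symbols close together, while the symbols of Spp1 lie between 2879 and 3933 FPKM.

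Eef1a1, the factor that brings aminoacyl transfer RNA to the ribosome, was the most abundant transcript, at 4305, 4287, 4202 and 4211 FPKM in siNC 1 to 4. Its 4 values had a coefficient of variation (SD over mean, CV) of 1.23%. Near-identical copies of the Eef1a1 sequence exist in the genome: 59.2% of the stretches of 50 bases in its main transcript also occur in another annotated gene, so how the reads were divided between copies is uncertain. Ranked next was Spp1, which encodes osteopontin, a secreted phosphoprotein that binds integrins, with 3933, 3829, 3058 and 2879 FPKM. Here siNC 1 and 2 lay above siNC 3 and 4, and the CV was 15.6%.

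Vim, the intermediate filament protein of mesenchymal cells and myoblasts, followed with 2731, 2807, 2928 and 2895 FPKM, and Lgals1, a galactoside-binding lectin, with 2577, 2699, 2615 and 2681 FPKM. Neither shared any stretch of 50 bases with another gene. The ferritin chains, which store iron, were both in the top 10, Ftl1 at 2210 ± 350 FPKM and Fth1 at 2058 ± 180 FPKM (SD, n = 4 each). Both were lowest in siNC 1, and 78.9% of the Ftl1 stretches but 4.01% of those of Fth1 were shared with other genes. The top 10 was completed by Tpt1, a translationally controlled growth protein (2203 ± 194 FPKM), Ppia, the cyclophilin A prolyl isomerase (1705 ± 176 FPKM), S100a4, a calcium-binding protein of motile mesenchymal cells (1593 ± 107 FPKM), and Pkm, the muscle-type pyruvate kinase gene (1590 ± 24.4 FPKM). Shared stretches made up 42.0% of Tpt1, 40.5% of Ppia, 56.3% of S100a4 and 34.4% of Pkm. Of the 40 most abundant genes 25 shared at least 20% of their stretches, against 7.15% of detected genes with a value.

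Cytosolic ribosomal protein genes filled 15 of the top 40 places and 35 of the top 100. Together the 83 listed genes held 8.65% ± 0.25 (SD, n = 4) of the summed FPKM, with a median of 371 FPKM. Of them 81 (97.6%, against 50.3% of the whole table) were at or above 1 FPKM. Rplp0 of the ribosomal stalk (1385 FPKM), Rpl8 (1353 FPKM) and Rplp1 (1181 FPKM) led. The 2 not detected were Rpl39l, listed at 0, and Rpl3l, a striated-muscle form, at 0.0186 FPKM. Rpl29 at 2.85 FPKM and Rpl21 at 4.63 FPKM stood far below the other detected subunit genes. Of the Rpl29 stretches 66.2% and of the Rpl21 stretches 26.2% were shared with other genes. Sharing was common on this list, and Rpl29 and Rpl21 were both among the genes sharing 20% or more. The median was 218 FPKM for the 12 genes sharing under 20%, the lowest of which was at 0. It was 354 FPKM for the 36 sharing from 20% to under 50%, and 407 FPKM for the 35 sharing at least 50%. Gapdh, a glycolytic enzyme often used as a reference gene, was at 16.1 ± 4.54 FPKM, with 82.5% of its stretches shared. Division of reads between copies was not tested for these genes. Eno2 and Aldoc, glycolytic forms known from brain, ran from 15.3 to 18.9 and from 0.476 to 1.72 FPKM over the 4 libraries.

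Enzymes of glycolysis, which turns glucose into pyruvate, were detected throughout. All 24 listed glycolytic genes and regulators were detected (100%, against 50.3% of the whole table), and 9 were above 100 FPKM. After Pkm came Eno1 (847 ± 16.3 FPKM), Ldha (765 ± 55.2 FPKM), which turns pyruvate into lactate, Aldoa (710 FPKM), Pgk1 (613 FPKM) and Tpi1 (558 FPKM). Of the Eno1 stretches 72.2% were shared with other genes. Other genes of the top 30 with no place on any list were Eef2, the translocation factor of translation (1163 ± 75.1 FPKM), Atp5b, the catalytic chain of mitochondrial ATP synthase (942 ± 13 FPKM), and Cd63, a tetraspanin of lysosomes and secreted vesicles (883 ± 14.3 FPKM).

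FPKM divides by length, so ranking by whole reads gave a different head of the list. Only 15 of the 30 genes with the highest FPKM were among the 30 with the most reads, which held 8.37% ± 0.24 (SD, n = 4) of all reads. The genes with the most reads included long transcripts of the matrix, the cytoskeleton and the cell surface. Fn1, fibronectin, ranked 4 by reads and 54 by FPKM (600 ± 84.1 FPKM). Flna, the actin crosslinker filamin A, ranked 7 by reads and 101 by FPKM, and Ahnak, a giant scaffold protein, ranked 9 by reads and 185 by FPKM.

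A TATA box is a short promoter element that fixes where transcription starts, and RefSeq promoter windows (GRCm38.p6, 250 bases before to 50 after the start) were found for 31 of the 40 most abundant genes. The letters TATAAA, read on the coding strand and beginning between 40 and 20 bases before the start, occurred for 3 of these genes. Over all 32851 promoter windows the share was 1.99%, and it was 2.50% with the other strand included. These shares are per window and not per gene, since the windows belong to 27025 genes. The windows of 50 bases before to 10 after the start of these 3 abundant genes are shown to display where the element lies, with TATAAA in capitals: Vim (chr2:13574261-13574320, plus strand, element from base 32 before the start), Ppia (chr11:6415817-6415876, plus strand, from base 29) and S100a4 (chr3:90603720-90603779, plus strand, from base 31). A match is a description and not a shown site of binding.
Vim: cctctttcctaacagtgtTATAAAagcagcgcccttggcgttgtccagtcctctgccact
Ppia: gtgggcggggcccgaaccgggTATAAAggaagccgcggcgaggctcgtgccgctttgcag
S100a4: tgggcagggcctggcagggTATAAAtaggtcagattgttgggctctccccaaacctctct

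Actin showed the form of cytoskeleton most plainly. The cytoplasmic genes Actg1 and Actb held 47.6% ± 0.4 and 47.5% ± 0.44 of the FPKM of the 6 actin genes (SD, n = 4 each). Actg1 had 1396, 1469, 1636 and 1577 FPKM in siNC 1 to 4, and Actb had 1400, 1455, 1603 and 1604 FPKM. The order of the pair changed between libraries, so they do not differ beyond their spread. Of the Actg1 stretches 56.7% and of the Actb stretches 14.2% were shared with other genes, so their balance depends on how reads were divided. The smooth muscle gene Acta2 came next with 136, 141, 144 and 140 FPKM. Acta1, the actin of adult skeletal sarcomeres, had 10.5, 10.4, 4.58 and 3.18 FPKM, and Actc1, the cardiac form that skeletal muscle uses while it develops, had 2.82, 1.93, 0.985 and 0.45 FPKM. Both sarcomeric genes were higher in siNC 1 and 2 than in siNC 3 and 4. The enteric smooth muscle gene Actg2 had its higher values, 6.54 and 6.67 FPKM, in siNC 3 and 4. This split is not particular to actins: the first principal component over all detected genes, with 73.3% of the variance, set the same pairs apart. The 2 sarcomeric genes together made up 0.281% of the summed actin FPKM.

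Actin promoters carry CArG boxes, the element bound by serum response factor, and the windows of 4 actin genes on either side of that gap in level are shown with the CArG box in capitals. No window was available for Actb, so Actg1 alone stands for the cytoplasmic genes, and Actg2 is not shown. They are Actg1 (chr11:120348446-120348745), Acta2 (chr19:34255324-34255623), Acta1 (chr8:123894726-123895025) and Actc1 (chr2:114052826-114053125), all on the minus strand of GRCm38.p6 and printed in the direction of transcription, 250 bases before to 50 after the RefSeq start. Only the strict box was counted and put in capitals, in which CC and GG enclose A and T alone. The abundant Actg1 and the low Acta1 and Actc1 each held 1 strict box, beginning 90, 73 and 47 bases before the start. The window of Acta2 held no match to the strict box, which says only that those letters are not in this window. Stretches that depart from it by 1 base were not counted. Examples are ccctatatgg and ccttgtttgg for Acta2, ccatatacgg for Acta1 and ccctatatgg for Actc1. Binding was not tested for any of them. The strict box reads the same on both strands by its definition, and 535 of the 32851 windows (1.63%) held 1 or more.
Actg1: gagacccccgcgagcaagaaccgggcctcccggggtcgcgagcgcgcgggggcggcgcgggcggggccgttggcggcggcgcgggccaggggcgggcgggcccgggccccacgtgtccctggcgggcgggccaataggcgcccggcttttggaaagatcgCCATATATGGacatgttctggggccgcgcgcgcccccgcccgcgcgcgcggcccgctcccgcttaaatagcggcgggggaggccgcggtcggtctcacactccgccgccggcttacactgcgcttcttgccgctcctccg
Acta2: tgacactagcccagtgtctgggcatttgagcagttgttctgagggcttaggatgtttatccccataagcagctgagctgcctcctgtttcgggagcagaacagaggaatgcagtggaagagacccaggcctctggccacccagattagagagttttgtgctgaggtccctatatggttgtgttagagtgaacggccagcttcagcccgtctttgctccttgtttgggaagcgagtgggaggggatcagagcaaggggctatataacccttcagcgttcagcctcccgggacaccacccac
Acta1: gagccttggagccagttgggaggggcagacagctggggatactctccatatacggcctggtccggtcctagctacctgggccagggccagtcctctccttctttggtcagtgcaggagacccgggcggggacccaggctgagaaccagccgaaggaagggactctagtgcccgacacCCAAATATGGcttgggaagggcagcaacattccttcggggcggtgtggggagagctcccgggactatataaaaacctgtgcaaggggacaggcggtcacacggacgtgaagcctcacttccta
Actc1: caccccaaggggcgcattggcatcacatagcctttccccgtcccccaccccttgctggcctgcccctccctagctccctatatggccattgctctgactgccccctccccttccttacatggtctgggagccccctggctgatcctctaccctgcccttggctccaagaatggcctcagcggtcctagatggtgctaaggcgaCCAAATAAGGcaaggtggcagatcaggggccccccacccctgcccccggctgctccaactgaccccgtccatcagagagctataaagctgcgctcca

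The other contractile families followed the actins in their use of nonmuscle members, with exceptions. Among tropomyosins, which lie along the actin filament, Tpm4 held 47.3% ± 1.4 and Tpm1 25.1% ± 1.0 of the family (SD, n = 4 each), and the muscle gene Tpm2 had 74.9 ± 4.6 FPKM. These are values per gene, and the muscle and nonmuscle transcripts of Tpm1, Tpm2 and Tpm3 were not told apart. Of nonmuscle and smooth muscle myosin heavy chains, Myh9 held 89.6% ± 0.15 at 362 ± 6.72 FPKM, and Myh11, the smooth muscle form, was at 0.0118 FPKM. The sarcomeric myosin heavy chains summed to 1.57 ± 1.1 FPKM, of which the embryonic form Myh3 held 83%. Myh3 had 2.55, 1.86, 0.522 and 0.488 FPKM in siNC 1 to 4, and Myh8, the perinatal form, was listed at 0 in all 4. Myosin light chains gave 636 ± 36 FPKM for Myl6, of nonmuscle and smooth muscle, and 11.1 ± 4.73 FPKM for Myl1, of fast muscle. Of the Myl6 stretches 53.2% and of the Myl1 stretches 32.1% were shared with other genes.

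Troponins, the calcium switch of the thin filament, are proteins of striated muscle. Tnnt2, the cardiac troponin T that immature skeletal muscle also makes, had 36.6, 33.3, 31.5 and 33.8 FPKM and held 89% ± 3.7 of the troponin T sum (SD, n = 4). The slow and fast skeletal genes Tnnt1 and Tnnt3 had 2.16 and 2.10 FPKM. Troponin I was led by the slow gene Tnni1 at 2.59 ± 1.79 FPKM, whose values overlapped those of the fast gene Tnni2 at 1.63 ± 0.926 FPKM. Tnnc1 (7.92 ± 2.08 FPKM), the slow and cardiac troponin C, lay above Tnnc2 (2.61 ± 1.56 FPKM), the fast one.

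Alpha actinins crosslink actin, at the Z disc in muscle and along stress fibres elsewhere. Actn4 and Actn1, the nonmuscle members, had 157 ± 6.8 and 129 ± 6 FPKM. Actn2, the main Z disc form, was listed at 0 in every library, yet Actn3, the form of fast fibres, had 46.4, 49.8, 34.3 and 28.8 FPKM, or 12.2% ± 3.1 of the family (SD, n = 4). Among actin crosslinkers of the filamin type, Flna had 404 ± 19.3 FPKM and the muscle form Flnc had 66.8 ± 4.2 FPKM.

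**Figure D2:**
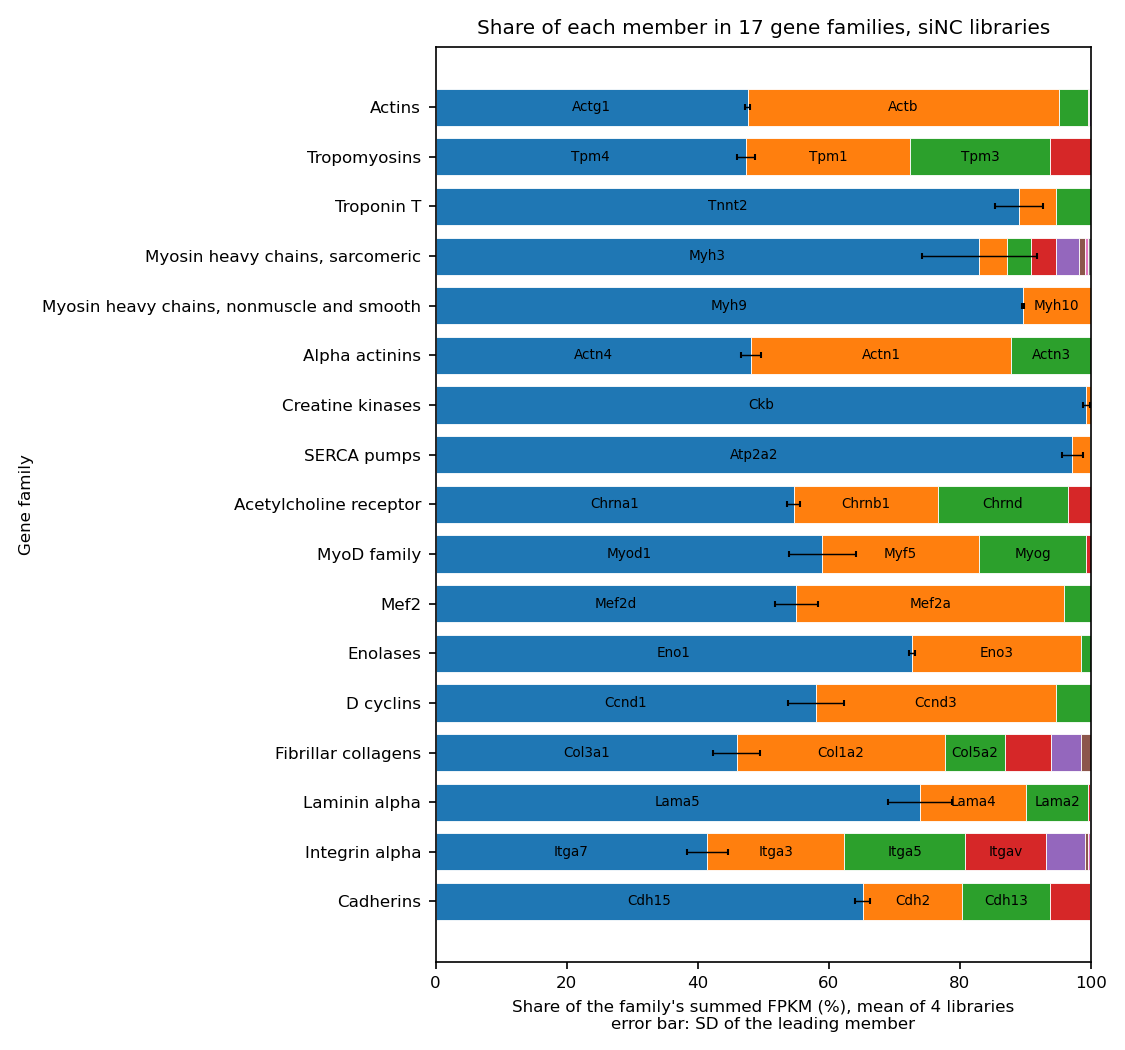
Share of each member (horizontal axis, % of the family's summed FPKM, mean of 4 siNC libraries) in 17 gene families (vertical axis), in order of level from left; colours mark rank in the family and names are given for shares above 8%. The bar marks the SD of the leading member, which is 0.4 percentage points for Actg1 and 8.7 for Myh3.

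Across all 79 families examined, 1 member held over 50% of the sum in 54 and over 90% in 17. In families of 2 members, such as troponin C, a share over 50% says little, since 1 of the 2 must lead. The leading member was chosen by its mean over these same 4 libraries. It lay above the second in all 4 libraries in 74 families, and in 71 the ranges of the pair did not overlap. Order changed between libraries in 5 families: the actins, troponin I (Tnni1 and Tnni2), the Rb family (Rbl1 at 25.5 ± 1.71 and Rbl2 at 24.4 ± 3.31 FPKM), collagen VI (Col6a1 and Col6a3) and the IGF binding proteins (Igfbp2 and Igfbp5). Counting reads without dividing by length named another leader in 6 of the 79 families.

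In most families of metabolism and calcium handling 1 gene held nearly all of the sum. Ckb, the brain-type creatine kinase, had 64.8 ± 6.1 FPKM and held 99.3% ± 0.52 of its family (SD, n = 4), and the muscle gene Ckm had 0.205, 0.984, 0.466 and 0.162 FPKM. The ubiquitous glucose transporter Slc2a1 held 99.4% ± 0.35 at 82.8 ± 3.8 FPKM, against 0.276 FPKM for Slc2a4, the insulin-responsive transporter of muscle and fat. Among enolases the muscle form Eno3 was far from silent, at 300 ± 9.29 FPKM and 25.8% ± 0.61 of the sum, behind Eno1. Atp2a2, the calcium pump of slow muscle and many other cells, held 97.1% ± 1.6 of the SERCA pumps at 120 ± 11.3 FPKM, and Atp2a1, the pump of fast muscle, had 4.84, 4.56, 2.05 and 1.58 FPKM.

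Regulators of the muscle lineage were present in all 4 libraries. Myod1 had 38.1, 36.1, 34.0 and 26.9 FPKM and held 59% ± 5.1 of its family (SD, n = 4). Myf5, which marks undifferentiated myoblasts, had 15.3, 16.7, 11.1 and 11.7 FPKM. Myog, the member induced as myoblasts enter differentiation, had 13.9, 14.3, 7.51 and 4.21 FPKM, and Myf6, the member of mature fibres, had 0.401 ± 0.142 FPKM. The highest library held 3.41 times the lowest for Myog and 1.42 times for Myod1.

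Of the Mef2 partners, Mef2d (30.3 ± 0.909 FPKM) and Mef2a (22.6 ± 2.98 FPKM) held nearly all of the sum, and Mef2c, the form that skeletal muscle induces, had 2.31 ± 0.503 FPKM. The stem cell regulator Pax7 had 1.26 ± 0.169 FPKM and Pax3 0.0223 FPKM. Inhibitors of MyoD family proteins were abundant, with Id3 at 83.1 ± 6.1, Id1 at 71.9 ± 7.5 and Id2 at 28.7 ± 3.2 FPKM (SD, n = 4 each).

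The labelled cell type was checked against marker lists. Of all genes in the file 50.3% were at or above 1 FPKM. All 10 myoblast markers were detected, from Des, the muscle intermediate filament (219 ± 42.3 FPKM), Itga7, the laminin receptor of muscle (144 ± 21.3 FPKM), and Cdh15, M-cadherin (80.5 ± 8.94 FPKM), to Sgca of the dystrophin complex (3.94 FPKM). Of 12 markers of the differentiated myotube 9 were at or above 1 FPKM, and only Myl1 was above 10 FPKM. Their summed level was 56.8, 53.6, 26.0 and 18.2 FPKM in siNC 1 to 4. The summed myoblast markers gave 667, 680, 562 and 499 FPKM and the summed fibroblast markers 1037, 1011, 746 and 636 FPKM in the same libraries, so siNC 4 was lowest for all 3 lists. In a bulk sample, fewer differentiated cells and less RNA of these genes per cell cannot be told apart. Endothelial markers were at or near 0, with 0 of 10 at 1 FPKM and Tie1, Cldn5 and Emcn listed at 0, and 1 of 10 leukocyte markers was detected, Cd68 at 2.97 FPKM, with Tyrobp, Itgam, Adgre1 and Cd3e listed at 0.

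Markers of other mesenchymal cells were detected in part. Of 10 fibroblast markers 5 were at or above 1 FPKM, led by Col3a1, Ly6a (265 ± 70 FPKM) and Cd34 (115 ± 3.77 FPKM), and Tcf21 was listed at 0. Among smooth muscle markers 7 of 10 were detected, Acta2 included, and Des, the highest of them, is also on the myoblast list. Myh11 was at 0.0118 FPKM and Rgs5 was listed at 0. The adipocyte list gave 3 of 10, with Lpl (12.1 FPKM), Cebpa (8.41 FPKM) and Pparg (6.89 FPKM) detected and Adipoq, Cidec, Lep and Retn listed at 0. Epithelial markers gave 2 of 10, of which Krt19 had 19.8 ± 1.14 FPKM, with Epcam and Esrp1 listed at 0. Pluripotency markers gave 2 of 10, Klf4 at 24.8 ± 2.4 FPKM and Sox2 at 1.53 FPKM, with Pou5f1 listed at 0. Osteoblast and chondrocyte markers gave 2 of 10, the transcription factors Runx2 and Sox9, and neural markers 2 of 10, Tubb3 (60.8 FPKM) and Map2 (3.78 FPKM).

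**Figure D3:**
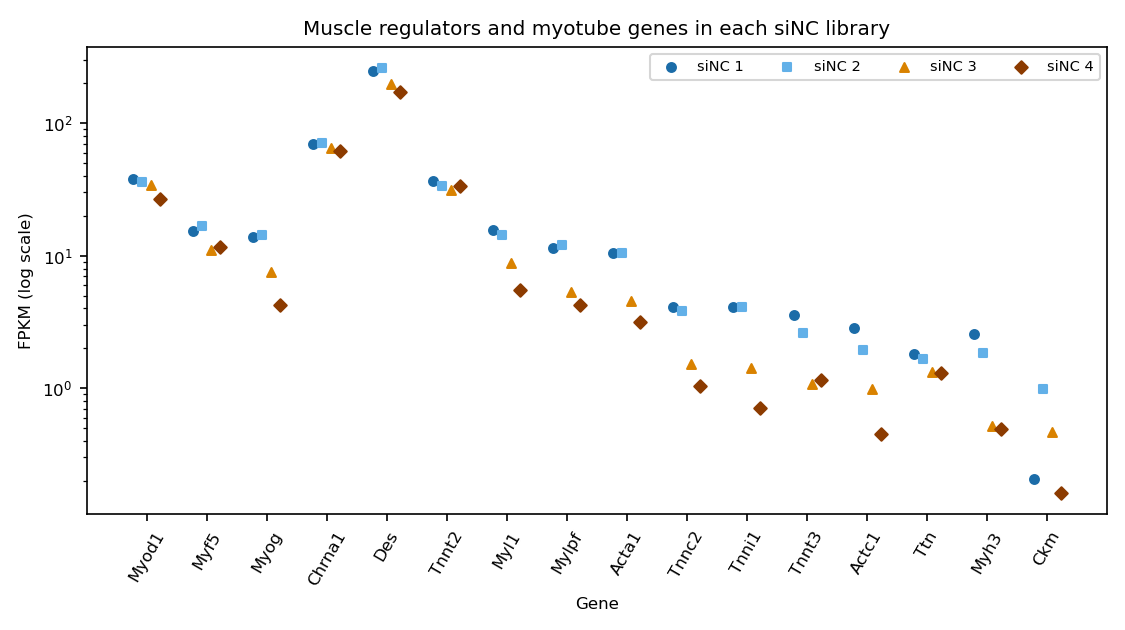
FPKM (vertical axis, log scale) of 16 muscle genes (horizontal axis) in each siNC library, by colour and symbol. Myog, Acta1, Tnni1 and Myh3 are lower in siNC 3 and 4 than in siNC 1 and 2. Myod1 and Chrna1 are lower there too, but by less. On this scale the symbols of Myod1, Chrna1, Des and Tnnt2 lie closer together than those of Myog, Acta1, Tnni1 and Myh3.

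Of 67 sarcomere genes, 36 (53.7%, against 50.3% of the whole table) were at or above 1 FPKM. Above 10 FPKM were 13 and above 100 FPKM 5, with a median of 1.35 FPKM over the list. The 5 highest were Tpm1, Tpm3, Des, Ankrd1 (207 ± 22 FPKM), a stretch-responsive repressor bound to titin, and the small heat shock protein Cryab (141 ± 4.96 FPKM), all of which also act outside the sarcomere. The giant ruler proteins were low, Ttn at 1.80, 1.67, 1.34 and 1.30 FPKM and Neb at 0.653 ± 0.223 FPKM. Because of its length even this level of Ttn rested on a mean of 5184 reads. Listed at 0 in all 4 libraries were Myot, Myh8, Myl2, Actn2, Myl3, Mybpc1 and Mybpc3, of which Myl2, Myl3, Mybpc1 and Mybpc3 belong to slow or cardiac muscle.

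Of 26 genes that couple excitation to calcium release and handle calcium, 16 (61.5%, against 50.3% of the whole table) were at or above 1 FPKM, with Cacng1, the gamma chain of the muscle calcium channel, at 33.4 ± 2.93 FPKM and Jph2, which ties the membrane to the calcium store, at 22.9 FPKM. The pore of that channel, Cacna1s, had 0.0947 FPKM, the calcium release channel Ryr1 2.46 ± 0.618 FPKM and the calcium buffer Casq1 0.0735 FPKM. The acetylcholine receptor, by contrast, had 4 of 5 chains detected: Chrna1 at 69.2, 71.1, 65.4 and 61.8 FPKM, Chrnb1 at 26.9 ± 0.87 FPKM, Chrnd at 24.4 ± 2.3 FPKM, and the fetal chain Chrng at 4.31 ± 1.93 FPKM. The adult chain Chrne, which replaces Chrng at the mature synapse, had 0.0394 FPKM.

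Genes of myoblast fusion gave 21 of 27 at or above 1 FPKM (77.8%, against 50.3% of the whole table). The muscle-specific fusogens were low, with myomaker (Tmem8c in the table) at 8.93, 7.39, 5.96 and 5.06 FPKM and myomixer (Gm7325) at 0.694, 0.346, 0.501 and 0.0683 FPKM. Adhesion and membrane proteins of wider use made up most of the list, among them Anxa1 (500 ± 41 FPKM), the tetraspanins Cd9 (413 FPKM) and Cd81 (187 FPKM), and Itgb1 (188 ± 13 FPKM). On the list of the muscle membrane and dystrophin complex 22 of 24 were detected (91.7%, against 50.3% of the whole table). Dag1, dystroglycan, was highest at 67.8 FPKM. Utrn, the dystrophin relative utrophin, had 23.2 FPKM, while Dmd itself was listed at 0, as was no other gene of that list. The nearest detected genes of the table on either side of Dmd on chromosome X were Tmem47 (8.58 ± 0.253 FPKM) and Tab3 (3.96 ± 0.562 FPKM). An exact 0 in this table can also be a value that was not estimated, and only the listing is reported.

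Genes of dividing cells were detected without exception. All 50 DNA replication genes and all 60 mitosis genes were at or above 1 FPKM (100%, against 50.3% of the whole table). None lay below 6.08 FPKM, the level of Orc1, while 40.7% of the whole table reached 5 FPKM. Their joint median was 40.5 FPKM against 15.1 FPKM for all detected genes. Rrm2, the ribonucleotide reductase subunit made in S phase, led replication at 215, 219, 264 and 279 FPKM, followed by the sliding clamp Pcna at 200, 207, 250 and 248 FPKM and by Tk1 at 112 FPKM. All 6 chains of the replicative helicase lay between 50.7 FPKM (Mcm4) and 90.3 FPKM (Mcm7). The 2 highest values of Rrm2 and Pcna were those of siNC 3 and 4.

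Mitosis was led by the microtubule regulator Stmn1 (182 ± 4.06 FPKM), Ube2s (178 FPKM) and Ube2c (147 FPKM), which work with the anaphase-promoting complex, and Top2a, which untangles chromosomes (164, 156, 164 and 165 FPKM in siNC 1 to 4). The proliferation marker Mki67 had 75.5, 74.9, 82.3 and 90.4 FPKM. The mitotic cyclins Ccnb1 (88.8 ± 5.79 FPKM), Ccna2 (84.4 ± 3.57 FPKM) and Ccnb2 (60.6 ± 5.7 FPKM) were of like level, and Kif18a at 9.15 ± 0.647 FPKM was the lowest of the 60. A list of histone genes made in S phase, on which H1f0 was also placed, gave 10 of 43 at or above 1 FPKM (23.3%, against 50.3% of the whole table). Hist1h1c had 26.3 ± 3.41 FPKM. The highest of the 10 was H1f0 at 178 ± 31.5 FPKM, a replacement linker histone not tied to replication. Most replication-dependent histone messengers end in a stem loop without a poly(A) tail, and these libraries were purified on polyT. The share is therefore not read as a result about these genes, and their levels were not compared with other genes.

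Genes of cell cycle exit were detected beside them, 23 of 23 (100%, against 50.3% of the whole table). Cdkn1a, the p21 inhibitor that MyoD activity raises in differentiating muscle, had 115, 115, 96.7 and 90.9 FPKM, and Cdkn1b (p27) had 46.5, 45.4, 38.8 and 37.6 FPKM. D cyclins were led by Ccnd1, which drives growth into S phase, at 128, 133, 153 and 161 FPKM, and by Ccnd3, which persists in myotubes, at 95.7, 98.2, 87.1 and 80.3 FPKM. In these 4 libraries Ccnd1 was highest where Ccnd3, Cdkn1a and Cdkn1b were lowest. Of the INK4 inhibitors, Cdkn2c (43.7 ± 2.4 FPKM) and Cdkn2d (39.4 ± 1.9 FPKM) were detected, and Cdkn2a and Cdkn2b, neighbours on chromosome 4, were both listed at 0. Mtap, the detected gene next to Cdkn2a, had 83.7 ± 10.3 FPKM.

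**Figure D4:**
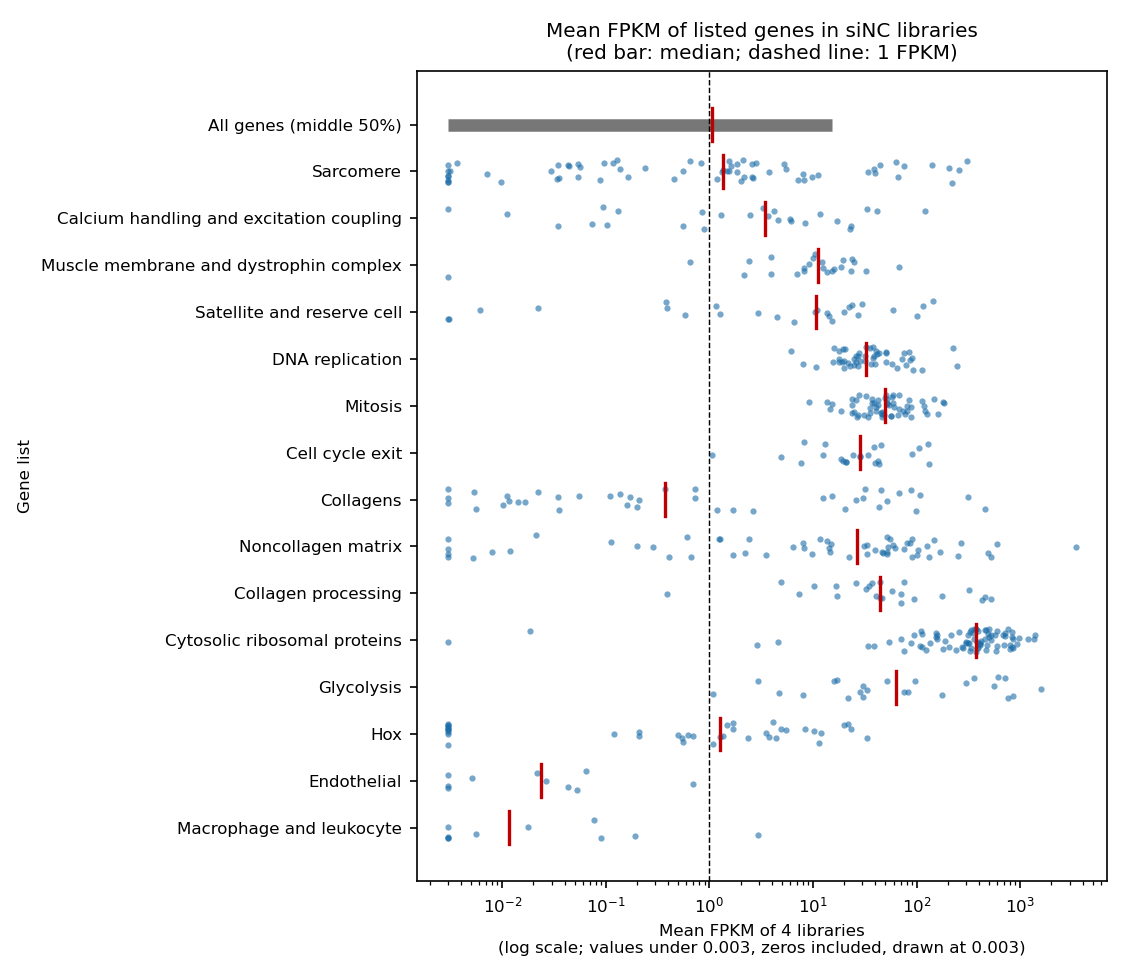
Mean FPKM over the 4 siNC libraries (horizontal axis, log scale) of each gene on 15 lists (rows; 1 point per gene), with the median as a red bar and 1 FPKM as a dashed line. The points of DNA replication and mitosis all lie right of 6 FPKM, those of the sarcomere and the collagens run across the whole axis, and the endothelial and leukocyte points lie at or left of 3 FPKM.

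Genes of the extracellular matrix were abundant in all 4 libraries. The 60 noncollagen matrix genes summed to 7504 ± 890 FPKM (SD, n = 4), or 1.90% ± 0.23 of all FPKM, of which Spp1 alone gave 3425 FPKM. After it came fibronectin, Sparc (520 FPKM), which binds collagen, the proteoglycans Bgn (487 FPKM) and Gpc1 (266 FPKM), and the basement membrane protein Nid1 (249 FPKM). Of the list 46 genes (76.7%, against 50.3% of the whole table) were at or above 1 FPKM. Postn, common in activated fibroblasts, had 0.198 ± 0.095 FPKM, Lum 0.021 FPKM and elastin, Eln, 0.00793 FPKM, while Acan, Mfap4 and Gpc3 were listed at 0.

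Of 41 collagen genes, 18 (43.9%, against 50.3% of the whole table) were at or above 1 FPKM and 15 (36.6%, against 31.9%) at or above 10 FPKM. Col3a1, of reticular fibres, had 566, 553, 390 and 325 FPKM, and Col1a2 had 346, 339, 292 and 265 FPKM. Col1a1, which supplies the other chain of type I collagen, had 49.8, 52.9, 42.6 and 34.1 FPKM, far below its partner Col1a2 in every library. Type VI was present in all 3 classical chains, Col6a1 (109 ± 29.7 FPKM), Col6a3 (99.4 ± 7.8 FPKM) and Col6a2 (43.8 ± 12 FPKM), and type IV through Col4a1 (26.0 FPKM) and Col4a2 (20.2 FPKM). The cartilage collagen Col2a1 had 0.00561 FPKM. Enzymes and chaperones that make and cross-link collagen gave 23 of 24 detected (95.8%, against 50.3% of the whole table). P4hb had 457, Serpinh1 427 and Lox 176 ± 3.85 FPKM.

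Receptors for this matrix were led by Itga7 among alpha integrins (41.5% ± 3.1 of the sum) and Itgb1 among beta integrins (69.2% ± 1.3). The cell adhesion gene Cdh15 held 65.2% ± 1.2 of the cadherins, above Cdh2, N-cadherin, at 18.6 ± 1.21 FPKM. Laminin alpha chains were led by Lama5 (52.3 ± 2.6 FPKM), and Lama2, the chain of the mature muscle basement membrane, had 6.79 ± 1.5 FPKM.

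Among 72 secreted factors 53 were at or above 1 FPKM (73.6%, against 50.3% of the whole table). Chemokines were prominent, with Cxcl5 at 434, 373, 278 and 256 FPKM, Cxcl1 at 125 FPKM and Ccl2 at 93.3 FPKM. Grem1, a BMP antagonist, had 231 ± 14.6 FPKM. The insulin-like growth factors Igf1 (0.144 FPKM) and Igf2 (0.190 FPKM) were near 0, with 90.5% of the Igf2 stretches shared with another annotated gene, while their binding proteins summed to 1102 ± 170 FPKM. Igfbp2 had 406, 447, 400 and 345 FPKM and Igfbp5, which differentiating myoblasts secrete, had 449, 434, 289 and 244 FPKM. Mstn, the muscle growth inhibitor myostatin, had 0.00537 FPKM. Of 47 growth factor receptors 34 were detected (72.3%, against 50.3% of the whole table). Axl (137 ± 3.32 FPKM), Pdgfrb (70 ± 5 FPKM) and Fgfr1 (66.7 ± 1.8 FPKM) led these.

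Hox genes, which hold the positional identity a tissue had in the embryo, gave 21 of 39 at or above 1 FPKM (53.8%, against 50.3% of the whole table). Hoxa (10 of 11) and Hoxc (9 of 9) were on, Hoxb gave 2 of 10 with Hoxb6 highest at 3.52 ± 0.5 FPKM, and all 9 Hoxd genes were listed at 0. The highest were Hoxc10 (33.3 ± 3.05 FPKM), Hoxa11 (23.0 ± 1.97 FPKM), Hoxc11 (21.5 FPKM) and Hoxa10 (20.1 FPKM), and paralogues 9 to 11 made up 67.2% ± 0.84 of the Hox sum (SD, n = 4). With Evx2 the Hoxd genes formed a run of 10 neighbouring genes at 0 on chromosome 2, and the detected genes of the table on either side were Lnp (6.85 ± 0.597 FPKM) and Mtx2 (30.8 ± 1.94 FPKM). Runs of at least 8 neighbouring genes at 0 occurred 120 times in the table.

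Of 42 limb mesenchyme factors 26 were detected (61.9%, against 50.3% of the whole table). Prrx1 had 120, 110, 86.6 and 83.3 FPKM, Prrx2 59.9 FPKM and the tendon factor Scx 51.3 FPKM. Twist2 had 32.7 FPKM while Twist1 was listed at 0, as were Tbx5, of the forelimb, and Pitx1, of the hindlimb, and Tbx4, of the hindlimb, had 0.0343 FPKM. None of 8 Y-linked genes was above 0, and 1 of the 105 table genes on chromosome Y had any value. On the imprinted list 11 of 23 genes were detected (47.8%, against 50.3% of the whole table), with Gnas at 388 ± 37 FPKM and Peg3 at 44.1 FPKM, and Dlk1, Rtl1 and Dio3, of 1 imprinted cluster, were listed at 0.

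Fam129b, the gene targeted in the other libraries, had 154, 163, 179 and 175 FPKM in siNC 1 to 4 and ranked 336 of the table. It held 96.9% ± 0.55 of the Niban family (SD, n = 4), with Fam129a at 3.56 ± 0.85 FPKM and Fam129c at 1.70 ± 0.34 FPKM.

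The spread between the 4 libraries exceeded counting error at every level. Over the 10996 detected genes the median CV was 8.30%, against 2.59% that the number of reads alone would give, with an interquartile range from 5.17% to 13.4%. It was 15.3% at 1 to 5 FPKM, 7.15% at 10 to 50 FPKM and 5.58% at 100 to 500 FPKM. Above 20% lay 1198 detected genes (10.9%). Across genes, on log2(FPKM + 1), siNC 1 and 2 had the highest correlation (Pearson's r = 0.996), then siNC 3 and 4 (r = 0.995), and siNC 1 and 4 the lowest (r = 0.985). These are correlations across genes, which are not independent replicates. The first principal component held 73.3% of the variance, with loadings of 0.51 and 0.47 for siNC 1 and 2 and -0.35 and -0.63 for siNC 3 and 4. As a check for a library deposited in duplicate, the chi-square per gene between pairs ran from 6.56 (siNC 1 and 2) to 40.2 (siNC 1 and 4), where a duplicate would give about 1 or less. Separate libraries exceed counting noise, so these values say nothing of how well the pairs agree. The labels name no batch, so what separates the libraries cannot be told from them.

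**Figure D5:**
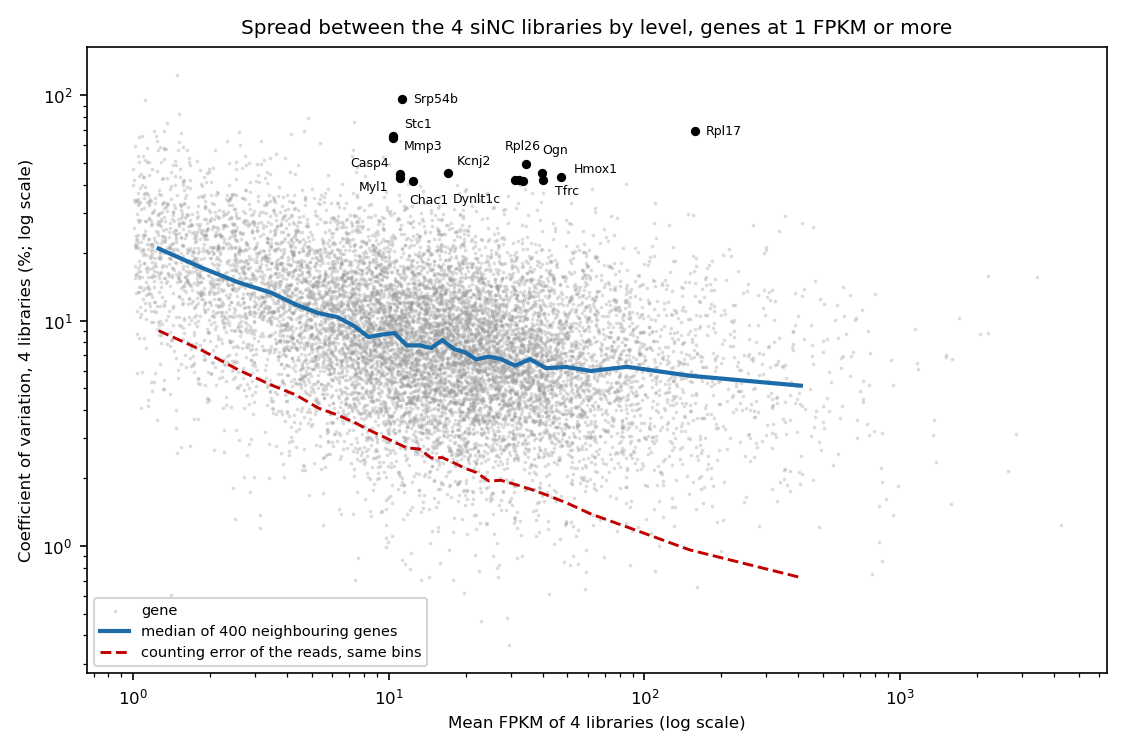
CV over the 4 siNC libraries (vertical axis, %, log scale) against mean FPKM (horizontal axis, log scale) for the 10996 detected genes, with the running median over bins of 400 genes (blue) and the counting error of the reads (dashed red). The blue line stays above the dashed line throughout, and black points mark the 15 genes of highest CV among those at 10 FPKM or more, of which 13 are named.

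Which library was highest or lowest differed between groups of genes. Over all detected genes siNC 1 to 4 were the highest library for 25.8%, 23.9%, 20.6% and 29.7% of genes and the lowest for 25.6%, 23.4%, 19.7% and 31.3%. Of the 36 detected sarcomere genes, siNC 1 was highest for 23 and siNC 4 lowest for 25. Of the 9 detected myotube markers, siNC 1 was highest for 8 and siNC 4 lowest for 8, and their median CV was 57.3%. Replication genes had the other order: of 50, siNC 4 was highest for 28 and siNC 3 for 20, while siNC 1 was lowest for 28 and siNC 2 for 20, with a median CV of 8.82%. For mitosis genes the order was less uniform, with siNC 4 highest for 29 of 60 and siNC 2 lowest for 25.

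Matrix genes mostly had siNC 4 as the lowest library, as did 31.3% of all detected genes. It was lowest for 13 of 18 detected collagens, 33 of 46 noncollagen matrix genes and 8 of 8 matrix metalloproteinases. The same held for 6 of 6 IGF binding proteins, but for fewer of the broader signalling lists, with 26 of 53 secreted factors and 17 of 34 growth factor receptors. Summed collagen FPKM was 1651, 1608, 1292 and 1128 in siNC 1 to 4, and the summed replication genes gave 2139, 2180, 2522 and 2557 FPKM. Glycolysis also had siNC 4 lowest, for 18 of 24. Ribosomal protein genes differed from these: siNC 1 was the lowest for 59 of 81 and siNC 2 the highest for 38.

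Among genes at 10 FPKM or more, the 15 with the largest CV were of 2 kinds. In 4 of them, Srp54b, Rpl17, Rpl26 and Dynlt1c, between 44.7% and 99.8% of the stretches of 50 bases were shared with another gene. Srp54b, a copy of a signal recognition particle gene, had 13, 2.92, 3.27 and 26.0 FPKM, and Rpl17 had 87.0, 314, 156 and 74.7 FPKM, so each differed even between the libraries that were otherwise most alike. Division of reads between copies was not tested as a part of this spread. Over all 282 genes at this level with at least 40% shared the median CV was 7.45%, and over the 5396 with under 1% shared it was 6.77%.

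The other 11 genes shared at most 32.1% of their stretches. Those highest in siNC 1 or 2 and lowest in siNC 4 were Stc1, a secreted calcium and phosphate regulator (17.9, 14.5, 5.20 and 4.08 FPKM), the protease Mmp3 (16.8, 15.4, 6.34 and 3.08 FPKM), Ogn, the small proteoglycan osteoglycin (58.8, 51.5, 27.5 and 21.8 FPKM), Kcnj2, an inward rectifier potassium channel, Casp4, Myl1, Ptn and Txnip, an inhibitor of thioredoxin and of glucose uptake. Highest in siNC 4 were 3 genes. Hmox1, the heme-degrading enzyme of the oxidative stress response, had 29.3, 31.1, 57.4 and 71.3 FPKM, the transferrin receptor Tfrc had 27.8, 24.3, 49.0 and 59.4 FPKM, and Chac1, a glutathione-degrading enzyme of the unfolded protein response, had 8.29, 7.89, 15.2 and 18.4 FPKM.

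The steadiest genes at 50 FPKM or more were Maea, Gnb1, Anxa2, Abcc1, Pacsin2, Iqgap1, Oat, Srp19, Rps4x and Wnk1, with CVs between 0.646% and 0.890%. Anxa2, a membrane-binding annexin, had 781, 785, 772 and 774 FPKM, and Gnb1, a G protein beta chain, had 161, 163, 160.3 and 160.4 FPKM. For Maea, a subunit of a ubiquitin ligase, the CV of 0.646% was below the 1.51% that its reads alone would give on average. The CVs of Gnb1, Abcc1, Pacsin2, Oat and Srp19 were also below their counting error, and those of Anxa2, Iqgap1, Rps4x and Wnk1 were above it. Picking genes for the smallest CV favours values below the counting error.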

How the data were processed

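Values are FPKM as the authors deposited them, 1 for each gene in each library. The build is mm9 per the submitters' processing notes, while aligner, counting tool and annotation are unknown here (not given in the sources used here). Since FPKM is relative to the total of its library, the composition of a library moves all its genes, and levels of genes with near-identical copies depend on how reads were divided. Columns were matched to samples by letter and replicate number, and 0 further columns of sample values were present.

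Mean, SD and CV were computed over the 4 siNC libraries (Python 3.11.15, pandas 2.3.3, numpy 2.4.6). A gene was called detected at a mean of at least 1 FPKM. Family shares are percent of the family's summed FPKM. Reads were recovered as the smallest whole numbers that give the ratios of a gene's values, within 0.001 of a read, for 16478 of 16479 genes with a value (Neat1 was the exception). All 8 columns served to find that unit and the totals are lower bounds. The recovery was tested on simulated data. The counting error of a gene is 1 over the square root of its mean reads, as a percent, and covers counting error only.

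Shared sequence is the percent of stretches of 50 bases in the principal GENCODE M21 transcript that occur in another gene, with a value for 96.6% of genes. Correlations used log2(FPKM + 1). Promoters came from RefSeq (GRCm38.p6), another build than the table's, and neighbouring genes follow that order, matched by symbol for 21329 genes. The text names the 40 most abundant genes, members of families and lists, and the genes of largest and smallest CV, shortened to those that show each group, and the nearest detected neighbours of genes at 0 were added after the values were seen. Members and lists were chosen with earlier results of these data known. No comparison between groups was tested, since the libraries are of 1 group. Dixon's criterion for single values and a chi-square between pairs of libraries served as descriptions. Alternatives were other thresholds, scalings, rankings by reads and leaving out each library.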

Additional observations from a re-analysis of the deposited data

Results flagged for a closer look

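In a group of 4, a value was singled out when its gap to the nearest other value over the range passed Dixon's 95% critical value, which chance does for about 1 in 20 groups. Among the 10996 detected genes 399 (3.63%) met it, and of the 254 genes named in the text 10 did.

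Top2a was low in siNC 2 at 156 FPKM, with the other libraries from 164 to 165 FPKM. Lama5 was low in siNC 4 at 48.4 FPKM, with the others from 53.4 to 53.7 FPKM. Cdkn2d was low in siNC 4 at 36.6 FPKM, with the others from 40.1 to 40.5 FPKM. Srp19 was low in siNC 4 at 54.5 FPKM, although its CV was among the smallest. Hoxc11 was high in siNC 2 at 23.3 FPKM, with the others from 20.8 to 21.0 FPKM, and Tmem47 was high in siNC 1 at 8.95 FPKM. Myh11 was high in siNC 3 at 0.0194 FPKM. Lum (0.0839 FPKM in siNC 1), Eln (0.0317 FPKM in siNC 2) and Mstn (0.0215 FPKM in siNC 1) had a value in 1 library and were listed at 0 in the others. With a value in only 1 library the gap equals the range, so such genes meet the criterion whatever that value is. At these levels, Myh11 included, values rest on few reads. Of 32 summed lists, the epithelial markers were low in siNC 4, at 20.3 FPKM with the others from 22.3 to 22.5 FPKM.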

How the results depend on the processing

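Counts of detected genes stayed within 1.5 times of the reported 10996, 36 sarcomere, 110 replication and mitosis and 18 collagen genes under thresholds of 0.5 or 5 FPKM, 1 FPKM in every library, rescaling the libraries to 1 common sum and leaving out each library, except that 19 sarcomere genes reached 5 FPKM. The share of the 30 leading genes (11.5%) was 8.37% by reads and 11.8% without ribosomal protein genes, and ran from 11.5% to 11.6% with 1 library left out. The median CV (8.30%) was 6.85% at 10 FPKM or more, 12.4% with every gene above 0 and 7.52% from the SD of log2(FPKM + 1), and ran from 7.43% (without siNC 4) to 8.36% with 1 library left out. The leading member's share moved beyond 1 SD in 53 of 79 families when reads were not divided by length, and in 0 when a library was left out. No paired analysis was possible because only 1 group was described. Depth limits the low end: at 1 to 5 FPKM counting error alone gave a median CV of 6.14%, and genes under 0.1 FPKM rest on few reads. Values with shared sequence depend on how the authors' counting divided reads, which is not given in the sources used here.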
